A study of Mus musculus with 16 samples.

Results

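The genes described here encode the general machinery of pre-mRNA splicing and the heterogeneous nuclear ribonucleoproteins (hnRNP proteins) that coat nascent transcripts. They were chosen by name, as every gene whose symbol starts with Hnrnp, Srsf, Sf3a, Sf3b, Snrp, U2af or Prpf, together with Ptbp1 and Nudt21. This rule gave 64 of the 18194 genes that a single annotated symbol names on the array, and 181 of 45101 probe sets. They fall into 20 hnRNP proteins with Ptbp1 counted among them, 10 SR proteins, 9 subunits of SF3A and SF3B, 9 proteins of the small nuclear ribonucleoproteins (snRNPs), 3 genes of the U2AF family, 12 PRPF genes, and Nudt21, a cleavage factor subunit. A gene was followed at its brightest probe set, that is, the highest in mean log2 value across the 16 arrays, so that its level is a description, and its other probe sets served as a check.

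The arrays came from thymocytes of PKBα-/- mice and of their wild-type littermates. PKBα, encoded by Akt1, is a serine/threonine kinase downstream of phosphatidylinositol 3-kinase, and the mutation is carried in the germline, so that every cell of the animal lacks it. Both genotypes shared a C57Bl/6 backcross. Cells were sorted at a pair of stages, the immature CD8 single positive stage (ISP8, CD4-CD8+CD3-) and the earlier double negative stage DN3 (lineage-negative, CD25+CD44-). The DN4 stage (CD25-CD44-), into which DN3 cells develop, lies between them and had no arrays. Each of 8 mice gave 1 array per stage, so that there were 4 arrays each of PKBα-/- ISP8, wild-type ISP8, PKBα-/- DN3 and wild-type DN3 cells. Littermate pair 1 was female and 5 weeks old, pair 2 male and 2 weeks old, pair 3 male and 3 weeks old, and pair 4 female and 3 weeks old, and values below are given in this order of pairs.

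Splicing removes introns in a cycle of assembly steps. The U1 snRNP binds the 5′ splice site, U2AF and the SF3A and SF3B parts of the U2 snRNP define the branch point and 3′ splice site, and the tri-snRNP, which holds many PRPF proteins, brings in the catalytic core. SR proteins mostly bind exonic enhancers and favour exon inclusion, whereas hnRNP proteins often act as silencers, and the balance between them sets many alternative exons. In T cells hnRNP L-like (Hnrnpll) and PTB (Ptbp1) are known regulators of the variable exons of CD45. The passage from DN3 to ISP8 follows β-selection, when thymocytes that carry a pre-TCR enter rapid division.

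Promoters are shown for 3 members whose transcripts more than doubled in ISP8 cells of wild-type mice, Snrpf, Hnrnpd and Srsf4, and for Sf3b1, which did not pass the test in either genotype. Each line gives the 250 bases before the annotated transcript start, 5′ to 3′ on the gene's strand, from RefSeq on mouse build GRCm38.p6. Capitals mark matches on either strand to CCGGAAG (the core bound by ETS factors), CACGTG (the E-box bound by Myc and related factors) and CCAAT (the box bound by NF-Y), 3 sets of letters that do not overlap each other. Snrpf lies at chr10:93589659-93589908 on the minus strand, Hnrnpd at chr5:99978939-99979188 on the minus strand, Srsf4 at chr4:131873387-131873636 on the plus strand (the first of its 3 listed starts), and Sf3b1 at chr1:55027479-55027728 on the minus strand.
Snrpf: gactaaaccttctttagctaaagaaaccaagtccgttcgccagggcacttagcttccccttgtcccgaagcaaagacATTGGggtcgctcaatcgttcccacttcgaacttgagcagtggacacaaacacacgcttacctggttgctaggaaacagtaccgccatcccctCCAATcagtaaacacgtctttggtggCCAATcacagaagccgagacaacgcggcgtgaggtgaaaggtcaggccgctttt
Hnrnpd: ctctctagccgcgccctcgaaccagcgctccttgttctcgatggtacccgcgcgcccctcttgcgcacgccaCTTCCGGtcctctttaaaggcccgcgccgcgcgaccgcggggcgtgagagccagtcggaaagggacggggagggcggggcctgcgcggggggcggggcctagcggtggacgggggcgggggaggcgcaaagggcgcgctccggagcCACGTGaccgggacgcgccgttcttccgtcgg
Srsf4: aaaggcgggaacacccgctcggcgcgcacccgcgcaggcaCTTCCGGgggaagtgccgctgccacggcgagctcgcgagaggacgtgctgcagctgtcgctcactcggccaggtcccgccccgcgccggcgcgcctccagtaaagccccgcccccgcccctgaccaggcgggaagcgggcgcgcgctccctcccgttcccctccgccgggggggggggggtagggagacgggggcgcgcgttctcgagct
Sf3b1: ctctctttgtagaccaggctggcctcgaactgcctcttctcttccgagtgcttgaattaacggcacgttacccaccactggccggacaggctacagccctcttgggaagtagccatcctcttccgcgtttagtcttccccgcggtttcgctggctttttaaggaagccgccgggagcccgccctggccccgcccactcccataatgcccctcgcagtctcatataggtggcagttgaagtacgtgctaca

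The sequence table held 57 of the 64 members. CCGGAAG was found in 17 of these 57 (29.8%), against 7.83% of all 27025 genes of the table and 20.9% of 3540 genes with a mean log2 intensity of 10 or more, the range in which most members lie. It was found in 10 of 28 members that were higher in ISP8 cells of both genotypes and in 2 of 15 that passed the test in neither. CACGTG was found in 6 members (10.5%), against 6.86% of all genes and 11% of the bright genes, and CCAAT in 30 members (52.6%), against 37.5% and 40.5%. By the same split of members, CACGTG was found in 3 of 28 and 3 of 15, and CCAAT in 13 of 28 and 10 of 15. In the 4 sequences shown, the Hnrnpd window held 1 match to CCGGAAG and 1 to CACGTG, the Srsf4 window 1 match to CCGGAAG, the Snrpf window 3 matches to CCAAT, and the Sf3b1 window none. These matches describe letters in the window only.

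The deleted gene was checked first. The Akt1 probe set 1416657_at read 6.41, 4.87, 6.81 and 5.02 in PKBα-/- ISP8 cells, against 1969, 2211, 2069 and 1628 in wild-type ISP8 cells. In DN3 cells it read 27.3, 2.01, 3.37 and 5.18 in PKBα-/- mice, against 1198, 1635, 2007 and 1324 in wild-type mice. All 16 arrays thus carried the Akt1 level that their labels imply. The stage labels were also borne out, since 9 of 10 DN3-stage genes fixed as markers were lower in ISP8 cells of each genotype, while of 5 ISP8-stage genes 3 were higher and 1 lower in PKBα-/- mice and 2 were higher and 1 lower in wild-type mice. Arrays of the same group had Spearman correlations of 0.902 to 0.921 over all probe sets. Values are GC-RMA intensities, on a linear scale, and changes are on the log2 scale. Intensities of different probe sets are not comparable with each other, because each set of probes binds with its own strength, so that levels are compared between samples only.

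Transcripts of splicing factors were on balance higher in ISP8 than in DN3 cells. Of 62 members that passed a filter on low values, 37 were higher and 2 lower in ISP8 cells of PKBα-/- mice, and 37 were higher and 0 lower in ISP8 cells of wild-type mice (limma with the mouse as a block, adjusted p under 0.05 over all probe sets tested). In the same fits, 11.9% of all probe sets were called higher and 16.2% lower in PKBα-/- mice, and 11.6% were called higher and 17.3% lower in wild-type mice, or 28.1% and 28.9% in either direction. The members are bright, and among 4273 genes with a mean log2 intensity of 10 or more the share called higher was larger, at 28.9% in PKBα-/- and 30.3% in wild-type mice, with 22.7% and 22.2% called lower. Of the 57 members in that range, 34 were called higher in PKBα-/- mice (59.6%) and 35 in wild-type mice (61.4%). The median change of the members was 0.27 in PKBα-/- and 0.33 in wild-type mice, against -0.05 and -0.09 over all probe sets and 0.05 and 0.07 over the bright genes. Arrays of sorted cells measure shares of a population, so that a change in the mix of cells and a change of RNA per cell cannot be told apart.

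**Figure D1:**
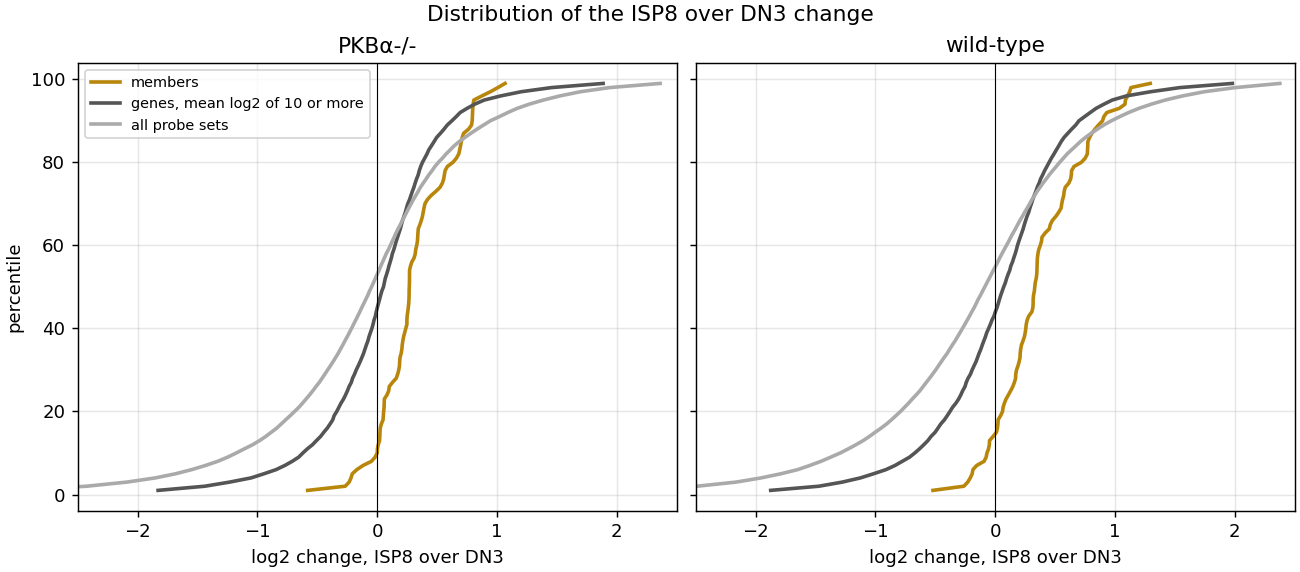
Percentiles (vertical axis) of the log2 change of ISP8 over DN3 (horizontal axis) in PKBα-/- (left) and wild-type mice (right), for the splicing factor and hnRNP genes, for genes with a mean log2 intensity of 10 or more, and for all probe sets tested. The curve of the members crosses its midpoint at 0.27 in PKBα-/- and 0.33 in wild-type mice, to the right of both other curves.

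The change was small for most members. The middle 50% of members lay between 0.10 and 0.54 in PKBα-/- mice and between 0.13 and 0.61 in wild-type mice. Of the members that passed, 2 exceeded a doubling in PKBα-/- mice (Sf3b4 and Srsf4) and 5 in wild-type mice (Sf3b4, Snrpf, Hnrnpl, Hnrnpd and Srsf4). All 4 ISP8 arrays lay above all 4 DN3 arrays for 30 members in PKBα-/- mice and 33 in wild-type mice, against 11.4% and 10.6% of all probe sets. By pair, the median change of the members was 0.34, 0.30, 0.27 and 0.22 in PKBα-/- mice and 0.38, 0.33, 0.39 and 0.27 in wild-type mice. The amount depended on scaling. After quantile normalization of the deposited values, the median of all probe sets moved to 0.03 in both genotypes, the median of the members to 0.18 in both, and the calls to 26 higher and 2 lower in PKBα-/- mice and 28 higher and 2 lower in wild-type mice. Under the same scaling 13.6% and 13.5% of all probe sets and 25.7% and 25.3% of the bright genes were called higher. Hnrnpa0, Hnrnpc, Hnrnpdl, Nudt21, Sf3b2 and Snrpb were called in both genotypes as deposited and in neither after this scaling. In PKBα-/- mice the calls of Prpf4b, Prpf19, Sf3b6, Snrpd3 and Snrpg were lost as well, and in wild-type mice those of Hnrnph1, Hnrnpm, Srsf2 and Srsf6. Relative to the median of all probe sets, the median of the members was 0.31 in PKBα-/- and 0.42 in wild-type mice as deposited, and 0.15 and 0.15 after quantile normalization.

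Other measures moved with stage. Of 17 proliferation genes, 16 were higher in ISP8 cells of each genotype, with a median change of 1.13 in PKBα-/- and 1.17 in wild-type mice. Cdk1, the mitotic cyclin-dependent kinase, changed by 2.03 in PKBα-/- and 2.25 in wild-type mice. The difference between the 3′ and 5′ actin control probe sets, a sign of RNA length, was lower in ISP8 cells in 3 of 4 PKBα-/- mice (mean change -0.23) and in 4 of 4 wild-type mice (mean change -0.65). The same difference for Gapdh was higher in 2 of 4 mice of each genotype (mean change 0.11 in PKBα-/- and -0.06 in wild-type mice). Summed intensity of 3 γδ T cell markers was 465 to 698 in PKBα-/- ISP8 and 282 to 671 in wild-type ISP8 cells, against 2064 to 4881 in PKBα-/- DN3 and 964 to 3480 in wild-type DN3 cells, so that in each genotype all ISP8 arrays were below all DN3 arrays. Sums of 3 B cell markers were 247 to 473 in PKBα-/- ISP8 and 295 to 450.0 in wild-type ISP8 cells, against 1053 to 1178 in PKBα-/- DN3 and 1149 to 1293 in wild-type DN3 cells. The lower sum was that of Cd79b (mean 261 and 257 in ISP8 cells of PKBα-/- and wild-type mice, against 1102 and 1177 in their DN3 cells), whereas Ms4a1 changed by 1.28 in PKBα-/- mice, without a call, and was called higher in wild-type mice (2.48). Sums of 5 thymic epithelium markers were 150 to 283 in PKBα-/- ISP8 and 161 to 300.0 in wild-type ISP8 cells, against 413 to 863 in PKBα-/- DN3 and 575 to 1065 in wild-type DN3 cells. Here Epcam alone was called lower (-2.91 in PKBα-/- and -3.02 in wild-type mice), and no other gene of the list was called. Sums of 2 NK cell markers were 79.1 to 239 in PKBα-/- ISP8 and 79.9 to 323 in wild-type ISP8 cells, against 9.77 to 75.4 in PKBα-/- DN3 and 24.0 to 49.9 in wild-type DN3 cells. Klrd1 was called higher in both genotypes (3.28 and 3.94), while Ncr1 passed in neither and gave 1.33 in PKBα-/- and -1.03 in wild-type mice. Sums of 4 neutrophil markers overlapped between stages. They were 38.1 to 145 in PKBα-/- ISP8 and 128 to 2890 in wild-type ISP8 cells. In PKBα-/- DN3 cells they were 32.5 to 389, and in wild-type DN3 cells 86.8 to 1114. Of 6 dendritic cell and macrophage markers, 1 was called higher and 2 lower in ISP8 cells of each genotype. Each marker of the lists exceeded 20 on at least 1 array. The part of any of these measures in the result was not tested.

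**Figure D2:**
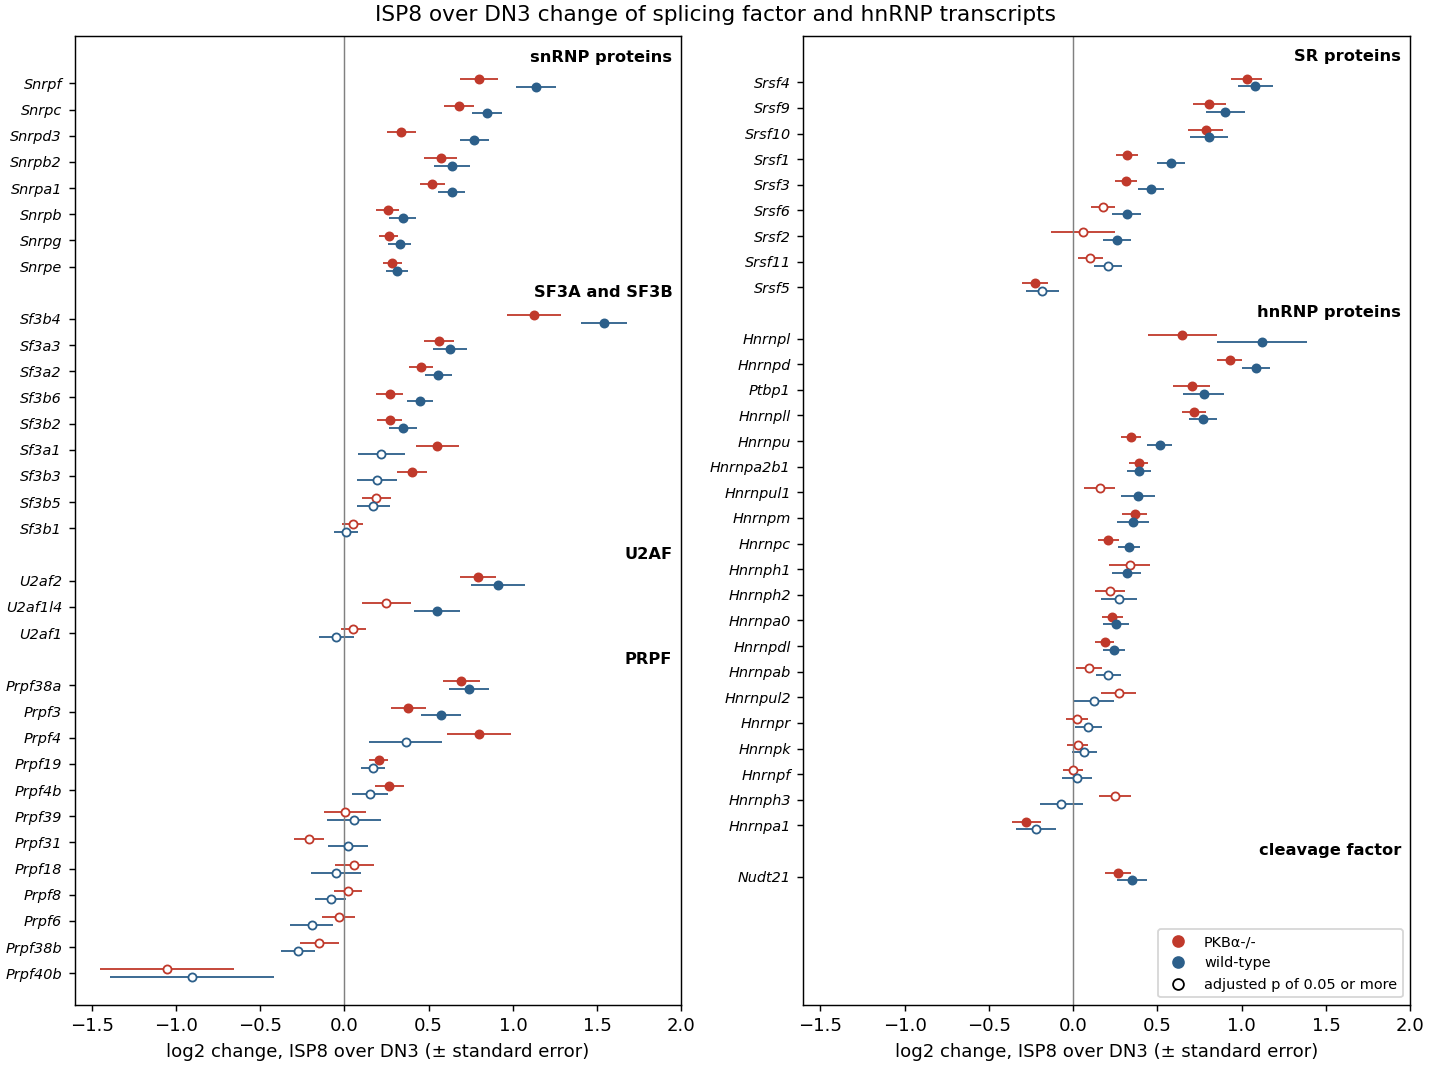
Log2 change of ISP8 over DN3 (horizontal axis, bars for the standard error) for each of the 62 members tested, by role, in PKBα-/- (red, upper point) and wild-type mice (blue, lower point). Filled points passed an adjusted p of 0.05, as all 8 snRNP proteins tested did in both genotypes in the deposited values, whereas the median of the PRPF genes is 0.04 in both.

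Of the proteins of the snRNPs, all 8 tested were higher in ISP8 cells of both genotypes in the deposited values, with a median change of 0.43 in PKBα-/- and 0.64 in wild-type mice. After quantile normalization Snrpb was no longer called in either genotype (limma adjusted p = 0.22 in PKBα-/- and 0.139 in wild-type mice), nor were Snrpd3 (0.22, limma adjusted p = 0.0774) and Snrpg (0.15, limma adjusted p = 0.052) in PKBα-/- mice. With all probe sets of a gene averaged, calls were lost for Snrpd3 in both genotypes, Snrpb2 and Snrpg in PKBα-/- mice and Snrpc in wild-type mice. Snrpf encodes SmF, a subunit of the Sm ring that encircles the U1, U2, U4 and U5 snRNAs. It read 3406, 6117, 4255 and 4742 in ISP8 cells, against 2618, 2701, 2495 and 2599 in DN3 cells of PKBα-/- mice, and 4124, 5014, 6591 and 4370, against 1823, 3147, 2494 and 1777, in wild-type mice. The ISP8 and DN3 arrays did not overlap in either genotype, and the change was 0.80 ± 0.11 (SE, adjusted p = 8.4e-05) in PKBα-/- and 1.14 ± 0.12 (adjusted p = 1.02e-05) in wild-type mice.

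Snrpc encodes the C protein of the U1 snRNP, which helps the U1 snRNP to hold the 5′ splice site. Its values were 6172, 6104, 5890 and 5143 in ISP8 cells, against 3242, 3732, 3808 and 3750 in DN3 cells of PKBα-/- mice, and 5975, 5486, 7164 and 7317, against 3256, 3479, 3762 and 3850, in wild-type mice. Every ISP8 array was thus above every DN3 array, with a change of 0.68 ± 0.09 (adjusted p = 4.22e-05) and 0.85 ± 0.09 (adjusted p = 1.13e-05).

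Snrpd3 encodes SmD3, another Sm ring subunit. It gave 6301, 7698, 7971 and 5343 in ISP8 cells, against 4869, 5012, 6511 and 5077 in DN3 cells of PKBα-/- mice, and 7320, 7828, 9301 and 8325, against 4744, 4883, 4765 and 4724, in wild-type mice. In PKBα-/- mice the ranges overlapped, and the change was 0.34 ± 0.09 (adjusted p = 0.00951), whereas in wild-type mice they stood apart and the change was 0.77 ± 0.09 (adjusted p = 2.03e-05). The PKBα-/- call was lost without pair 2 (0.25, limma adjusted p = 0.0678) and without the block (limma adjusted p = 0.0704). Snrpa1, a protein of the U2 snRNP, averaged 9113 ± 595 in ISP8 and 6349 ± 400.2 in DN3 cells of PKBα-/- mice, and 9446 ± 711 and 6100.3 ± 757 in wild-type mice (SD, n = 4 each). The remaining snRNP members Snrpb, Snrpb2, Snrpe and Snrpg changed by 0.26 to 0.57 in PKBα-/- and by 0.31 to 0.64 in wild-type mice. Snrpn did not pass the filter and read 2.26 to 67.0 over the 16 arrays.

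Among the SF3A and SF3B subunits, 7 of 9 were higher in PKBα-/- and 5 of 9 in wild-type mice, with medians of 0.40 and 0.35. Sf3b4, which contacts the pre-mRNA near the branch point, had the largest change of all members in both genotypes. It read 4603, 6087, 6155 and 6440.5 in ISP8 cells, against 2089, 4271, 3290 and 1666 in DN3 cells of PKBα-/- mice, and 5903, 8146, 7338 and 5112, against 1725, 4277, 1977 and 1729, in wild-type mice. The 2-week-old pair 2 had the highest DN3 value in each genotype, while no DN3 array reached the lowest ISP8 array, and the change was 1.13 ± 0.16 (2.18-fold, adjusted p = 0.000107) in PKBα-/- and 1.54 ± 0.14 (2.91-fold, adjusted p = 2.09e-06) in wild-type mice.

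Sf3a3 and Sf3a2, both subunits of SF3A, changed less. Sf3a3 averaged 5517 ± 196 in ISP8 and 3755 ± 427 in DN3 cells of PKBα-/- mice and 5721 ± 246 and 3721 ± 418 in wild-type mice (SD, n = 4 each). Sf3a2 changed by 0.45 ± 0.07 in PKBα-/- and 0.56 ± 0.08 in wild-type mice, and Sf3b6, the p14 branch point protein, by 0.27 ± 0.08 and 0.45 ± 0.08. Sf3b2 changed by 0.27 ± 0.07 and 0.35 ± 0.08. In PKBα-/- mice the Sf3b6 call was lost without pair 1 (limma adjusted p = 0.1) or the block (limma adjusted p = 0.078). The Sf3b2 call in these mice was lost without pair 2 (limma adjusted p = 0.0686) or pair 3 (limma adjusted p = 0.059). Sf3b1, the large scaffold that holds the branch point helix, read 13341, 13327, 14244 and 13532 in ISP8 cells, against 13967, 11970, 13688 and 13043 in DN3 cells of PKBα-/- mice, and 13497, 13727, 13263 and 13091, against 14359, 12651, 13587 and 12732, in wild-type mice. These ranges overlapped, with changes of 0.05 ± 0.06 and 0.01 ± 0.07, so that subunits of 1 complex gave values on either side of the threshold.

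In the U2AF family the large and small subunits differed in call. U2af2, the subunit that binds the polypyrimidine tract, read 3386, 3693, 3294 and 3528 in ISP8 cells, against 1623, 2724, 1826 and 1990 in DN3 cells of PKBα-/- mice, and 2291, 3377, 3939 and 4563, against 1450, 2737, 1698 and 1646, in wild-type mice. Pair 2 had the highest DN3 value in each genotype. The stages did not overlap in PKBα-/- mice, while in wild-type mice the ISP8 array of pair 1 lay below the DN3 array of pair 2. The change was 0.79 ± 0.11 (adjusted p = 5.46e-05) in PKBα-/- and 0.91 ± 0.16 (adjusted p = 0.000685) in wild-type mice. U2af1, the subunit that reads the terminal AG of the intron, averaged 6245 ± 444 in ISP8 and 6013 ± 272 in DN3 cells of PKBα-/- mice and 5794 ± 684 and 5968 ± 472 in wild-type mice, and did not pass. Its paralog U2af1l4 gave 0.25 ± 0.15 in PKBα-/- mice (adjusted p = 0.242) and 0.55 ± 0.13 in wild-type mice (adjusted p = 0.00684).

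The PRPF genes had a median change of 0.04 in both genotypes. Of 12 tested, 5 were called higher in PKBα-/- mice (41.7%) and 2 in wild-type mice (16.7%), where the bright genes gave 28.9% and 30.3%. Prpf38a, which takes part in activation of the assembled spliceosome, averaged 2823 ± 369 in ISP8 and 1740.0 ± 172 in DN3 cells of PKBα-/- mice and 2796 ± 370 and 1678 ± 255 in wild-type mice, with changes of 0.69 ± 0.11 (adjusted p = 0.000221) and 0.74 ± 0.12 (adjusted p = 0.000323). Prpf3, a protein of the U4/U6 snRNP, changed by 0.38 ± 0.10 and 0.57 ± 0.12, and its PKBα-/- call was lost without pair 3 (limma adjusted p = 0.0632) or pair 4 (limma adjusted p = 0.0575). Prpf8, the scaffold of the catalytic centre, gave 0.02 ± 0.08 in PKBα-/- and -0.08 ± 0.09 in wild-type mice and did not pass. Prpf4 (a U4/U6 snRNP protein), Prpf4b (a kinase) and Prpf19 (a ubiquitin ligase of the activated spliceosome) passed in PKBα-/- mice, with changes of 0.80, 0.27 and 0.20, and gave 0.36, 0.15 and 0.17 in wild-type mice. The Prpf4b call was lost without pair 1, 2 or 3 (0.28, 0.20 and 0.22, limma adjusted p = 0.064 to 0.161), without the filter, in the fit of all 16 arrays, with probe sets averaged and after quantile normalization (0.14, limma adjusted p = 0.261), and the Prpf19 call after quantile normalization (0.08, limma adjusted p = 0.261). Prpf40b read 24.6 to 81.0 in ISP8 and 67.0 to 100.4 in DN3 cells of PKBα-/- mice and 24.4 to 89.3 and 54.6 to 129.7 in wild-type mice, and its change of -1.05 ± 0.40 and -0.91 ± 0.49 did not pass.

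Of 9 SR proteins tested, 5 were higher and 1 lower in ISP8 cells of PKBα-/- mice, and 7 were higher in wild-type mice. Srsf4, a regulator of alternative exons, read 5056, 5659, 5086 and 4520 in ISP8 cells, against 2030, 2984, 2663 and 2340 in DN3 cells of PKBα-/- mice, and 5519, 5712, 5713 and 5013, against 2244, 3343, 2760 and 2171, in wild-type mice. The stages were widely apart, with a change of 1.03 ± 0.09 (2.04-fold, adjusted p = 1.28e-06) and 1.08 ± 0.11 (2.12-fold, adjusted p = 4.93e-06). Srsf9 gave 2175, 3262, 2850 and 2295 in ISP8 cells, against 1335, 1650, 1755 and 1278 in DN3 cells of PKBα-/- mice, and 2185, 3549, 3627 and 2301, against 1246, 1631, 1777 and 1471, in wild-type mice.

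The Srsf9 ranges did not overlap, and its changes were 0.81 ± 0.10 and 0.90 ± 0.12. Srsf10, which represses splicing when dephosphorylated, changed by 0.79 ± 0.10 and 0.80 ± 0.11. Srsf1, the founding SR protein and a regulator of constitutive and alternative splice sites, read 17773, 22534, 22589 and 21200 in ISP8 cells, against 16618, 16562, 17017 and 16760 in DN3 cells of PKBα-/- mice, and 23129, 21344, 23117 and 21133, against 14012, 17794, 14605 and 13330, in wild-type mice. Its changes were 0.32 ± 0.07 (adjusted p = 0.00177) and 0.58 ± 0.08 (adjusted p = 0.000137). Srsf3, a small SR protein with a part in mRNA export, changed by 0.32 ± 0.07 and 0.46 ± 0.08. Srsf5 was called lower in PKBα-/- mice, at -0.22 ± 0.08 (adjusted p = 0.0446), and gave -0.18 ± 0.10 (adjusted p = 0.197) in wild-type mice. This call was lost without pair 2, 3 or 4 (-0.25, -0.16 and -0.19, limma adjusted p = 0.0634 to 0.246), without the block, without the filter, in the fit of all 16 arrays and with probe sets averaged. Srsf6 (0.18 ± 0.07 and 0.32 ± 0.09) and Srsf2 (0.06 ± 0.19 and 0.26 ± 0.08) passed in wild-type mice, but Srsf6 was lost without pair 3 (limma adjusted p = 0.0508) and Srsf2 without any 1 of the 4 pairs (limma adjusted p = 0.0508 to 0.0852). Srsf12 did not pass the filter and read 1.34 to 36.3 over the 16 arrays.

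**Figure D3:**
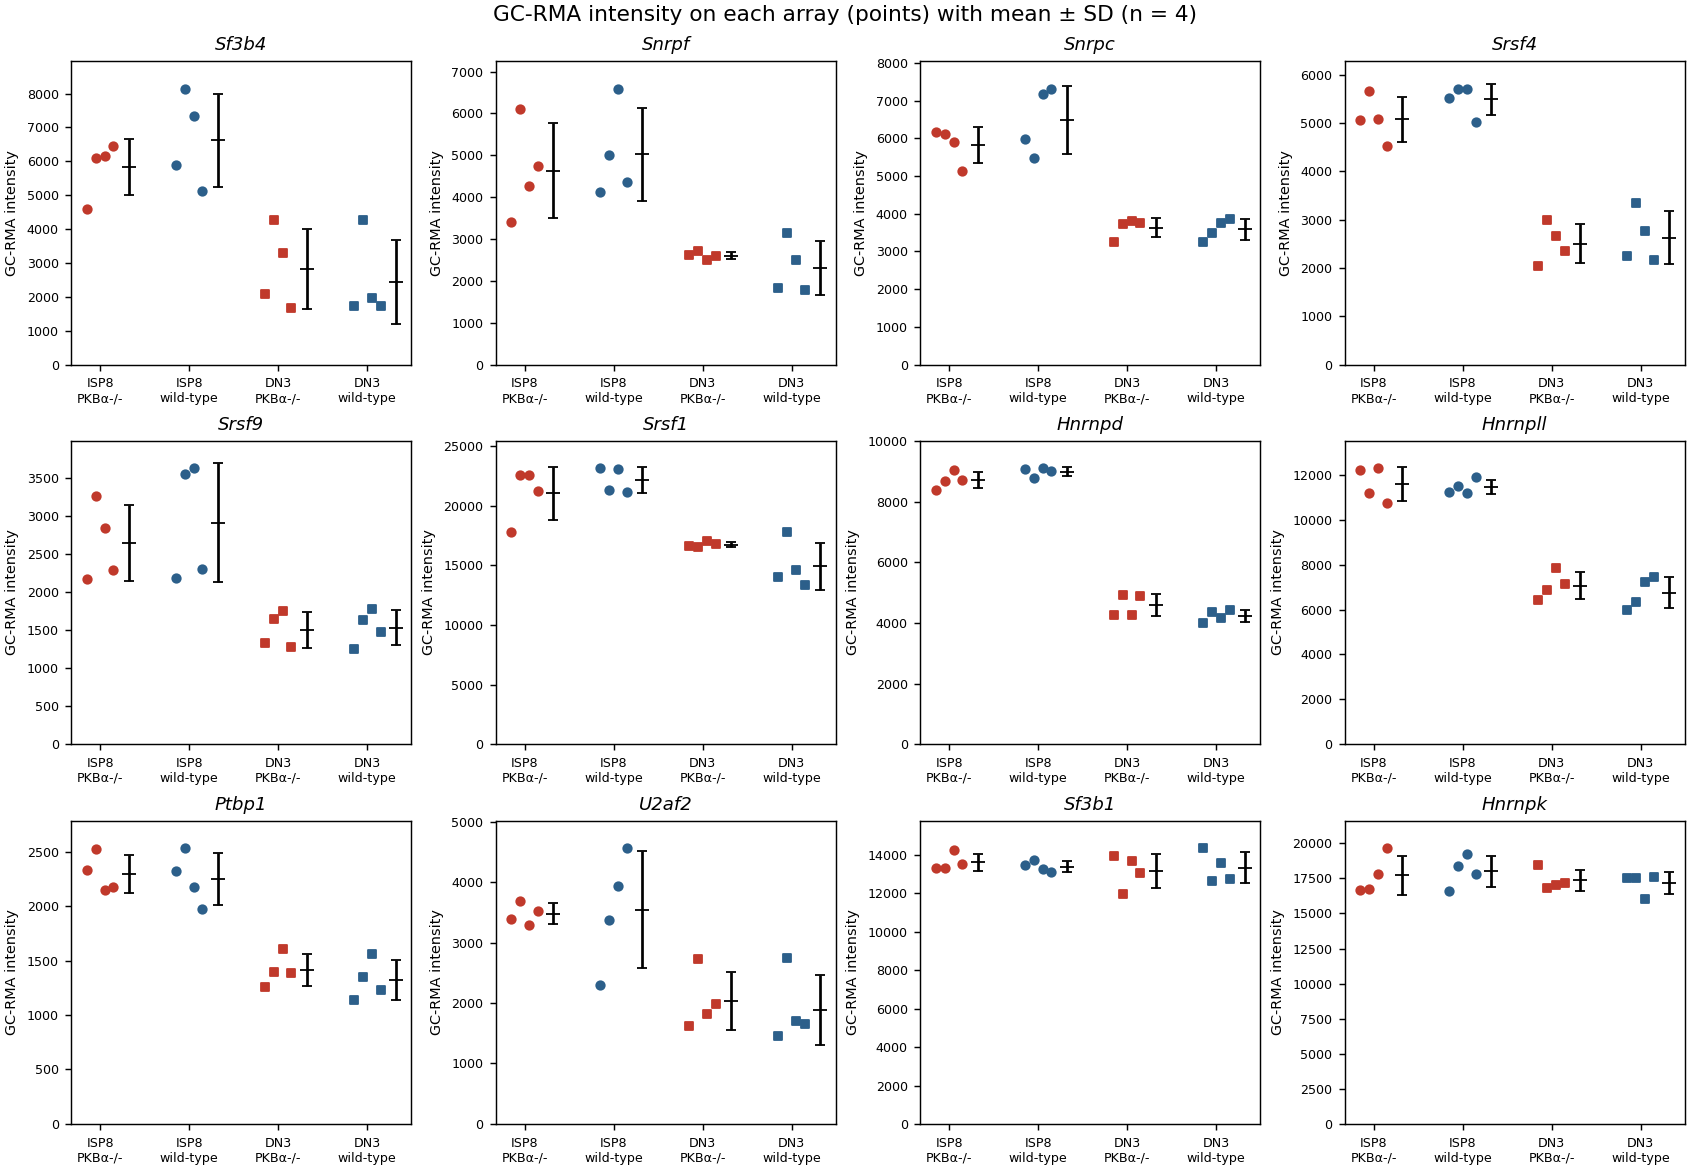
GC-RMA intensity (vertical axes, starting at 0) of 12 members on each of the 16 arrays, with the 4 arrays of each group as points in the order of pairs and the mean ± SD beside them. From Sf3b4 to U2af2 the ISP8 points of a genotype lie above its DN3 points, apart from U2af2 in wild-type mice, while the Sf3b1 and Hnrnpk panels overlap.

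Among the hnRNP proteins, 10 of 20 were higher and 1 lower in PKBα-/- mice and 12 were higher in wild-type mice, with medians of 0.24 and 0.29. Hnrnpd encodes AUF1, which binds AU-rich elements and affects mRNA decay. It read 8381, 8666, 9025 and 8717 in ISP8 cells, against 4262, 4908, 4259 and 4890 in DN3 cells of PKBα-/- mice, and 9080, 8778, 9094 and 9011, against 4004, 4364, 4150 and 4414, in wild-type mice. The arrays within a group were close to each other and the stages far apart, so that the change of 0.93 ± 0.08 (1.90-fold, adjusted p = 5.14e-07) and 1.09 ± 0.08 (2.13-fold, adjusted p = 5.46e-07) had the smallest adjusted p of any member in each genotype.

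Hnrnpll read 12201, 11176, 12290 and 10762 in ISP8 cells, against 6426, 6868, 7857 and 7118 in DN3 cells of PKBα-/- mice, and 11245, 11510, 11209 and 11889, against 5994, 6348, 7221 and 7445, in wild-type mice. It thus stood 0.72 ± 0.07 (adjusted p = 4.14e-06) and 0.77 ± 0.08 (adjusted p = 1.08e-05) higher in ISP8 cells. Ptbp1 gave 2336, 2522, 2147 and 2174 in ISP8 cells, against 1254, 1392, 1608 and 1389 in DN3 cells of PKBα-/- mice, and 2325, 2533, 2171 and 1974, against 1135, 1352, 1558 and 1234, in wild-type mice. No DN3 array reached an ISP8 array, and the change was 0.70 ± 0.11 (adjusted p = 0.000212) and 0.77 ± 0.12 (adjusted p = 0.00032).

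Hnrnpu, a large nuclear matrix protein, changed by 0.34 ± 0.06 and 0.51 ± 0.08, and Hnrnpa2b1 by 0.39 ± 0.06 and 0.39 ± 0.07. Hnrnpl, a paralog of Hnrnpll, read 197 to 318 in ISP8 and 134 to 229 in DN3 cells of PKBα-/- mice and 221 to 429 and 110 to 174 in wild-type mice, and its changes of 0.65 ± 0.21 and 1.12 ± 0.27 had the largest errors of the hnRNP members. Its PKBα-/- call was lost without pair 2, 3 or 4 (0.71, 0.60 and 0.57, limma adjusted p = 0.0518 to 0.0876), without the block and in the fit of all 16 arrays. Hnrnpa1, which often acts as a splicing silencer, was called lower in PKBα-/- mice, at -0.28 ± 0.09 (adjusted p = 0.0253) and with 0 of 4 mice positive, and gave -0.22 ± 0.12 (adjusted p = 0.207) in wild-type mice. Its call was lost without pair 1, 3 or 4 (-0.24, -0.30 and -0.25, limma adjusted p = 0.0709 to 0.0878), without the block, in the fit of all 16 arrays and with probe sets averaged. Hnrnpa1 and Srsf5, the 2 members called lower, were named after their values were seen. Hnrnpk read 16703, 16743, 17787 and 19653 in ISP8 cells, against 18459, 16780, 17056 and 17189 in DN3 cells of PKBα-/- mice, and 16568, 18413, 19214 and 17811, against 17540, 17535, 16002 and 17603, in wild-type mice, with ranges that overlapped. Hnrnpdl, a relative of Hnrnpd, passed in both genotypes with smaller changes of 0.19 ± 0.05 and 0.24 ± 0.07, the PKBα-/- call being lost without pair 3 (limma adjusted p = 0.106). The PKBα-/- call of Hnrnpdl was also lost without the filter (limma adjusted p = 0.0657). Without the block its call was lost in both genotypes (limma adjusted p = 0.0562 in PKBα-/- and 0.0714 in wild-type mice).

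Nudt21 encodes the RNA-binding subunit of cleavage factor I, which helps to choose polyadenylation sites. At its brightest probe set it read 8246, 8114, 8527 and 7717 in ISP8 cells, against 5944, 6520, 7250 and 7475 in DN3 cells of PKBα-/- mice, and 8182, 7362, 9743 and 9087, against 5528, 6554, 7452 and 7479, in wild-type mice. The ISP8 values were higher in 4 of 4 mice of each genotype, with ranges that overlapped in wild-type mice only, by 0.27 ± 0.08 (adjusted p = 0.02) in PKBα-/- and 0.35 ± 0.09 (adjusted p = 0.00791) in wild-type mice. The PKBα-/- call was lost without pair 1, 2 or 3 (limma adjusted p = 0.0571 to 0.094).

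The genotypes are different mice, paired as littermates. Of 37 members higher in each, 32 were higher in both. The matching share of all probe sets was not counted, so this overlap is a description only. Those called only in wild-type mice were Hnrnph1, Hnrnpul1, Srsf2, Srsf6 and U2af1l4, and those called higher only in PKBα-/- mice were Prpf19, Prpf4, Prpf4b, Sf3a1 and Sf3b3, while 18 passed in neither. Of the wild-type calls, that of Hnrnpul1 was lost without pair 1 (0.35, limma adjusted p = 0.0503) and that of Hnrnph1 without pair 2 (0.26, limma adjusted p = 0.0791). Among members higher in both, the wild-type call of Hnrnpm was lost without pair 1 (limma adjusted p = 0.0724). That of Hnrnpa0 was lost without pair 2 or pair 4 (limma adjusted p = 0.0929 and 0.0595). The PKBα-/- call of Hnrnpc was lost without pair 1 or 2, the filter or the block (limma adjusted p = 0.0509 to 0.108). The difference of the change between genotypes was itself tested, and 0 of 62 members passed, as did 0% of all 36835 probe sets (limma interaction term, smallest adjusted p of a member 0.961). At an unadjusted p under 0.05 there were 2 members, Snrpd3 (difference -0.43 ± 0.13) and Srsf1 (-0.26 ± 0.11), against 4.75% of all probe sets. Calls made in 1 genotype were therefore not shown to differ from the other genotype.

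Many members are read by several probe sets, which allowed a check that the rule did not use. An Affymetrix probe set whose name ends in _at was designed for 1 transcript, _a_at for several transcripts of a gene, and _s_at and _x_at for sequences that other genes may share. Of 116 other probe sets tested, 44 were called higher and 3 lower in PKBα-/- mice and 45 higher and 3 lower in wild-type mice, with medians of 0.26 and 0.29. Genes called higher at their brightest probe set had 74 others in PKBα-/- mice. Of these, 59 had the same sign, 31 were called higher and 2 lower. In wild-type mice such genes had 68 others, of which 58 had the same sign, 30 were called higher and 1 lower. Among the chosen probe sets, 1 of 4 ending in _x_at, 8 of 9 in _s_at, 12 of 17 in _a_at and 16 of 32 in _at were called higher in wild-type mice.

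**Figure D4:**
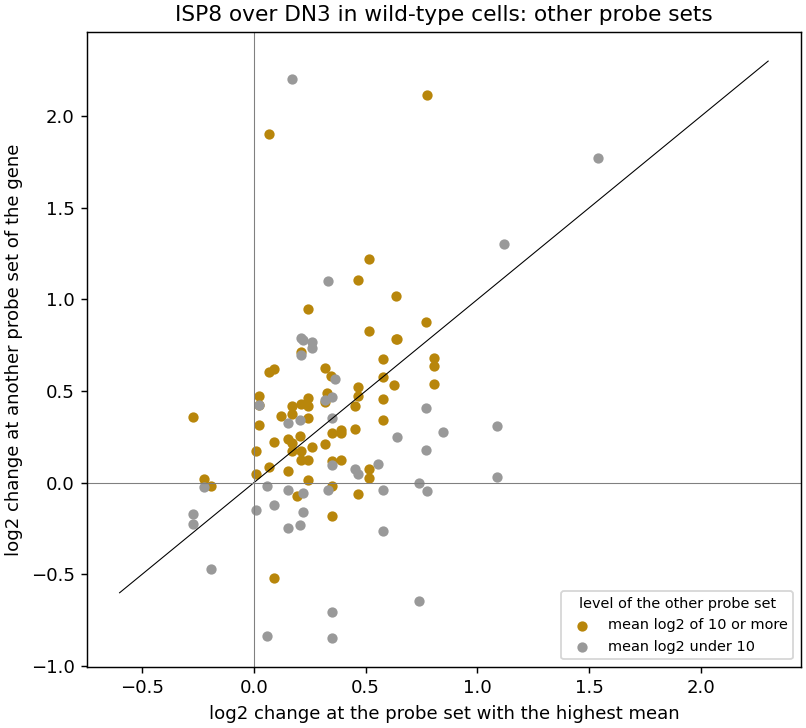
Log2 change of ISP8 over DN3 in wild-type mice at each other probe set of a member (vertical axis) against that at its brightest probe set (horizontal axis), coloured by the mean log2 level of the other probe set, with the line of equality. Most points share the sign of the brightest probe set, and the Nudt21 points at -0.71 and -0.85 are among the exceptions. The Hnrnpk point at 1.90 shares the sign but lies far above the line.

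Some members without a call at the brightest probe set were called at others. For Hnrnpk, 1448176_a_at changed by 0.60 ± 0.07 in PKBα-/- and 0.60 ± 0.09 in wild-type mice, and 1454692_x_at by 2.12 ± 0.18 and 1.90 ± 0.32, while 1460547_a_at, the brightest, gave 0.03 and 0.07. The 1454692_x_at values in wild-type mice were 2236, 5425, 5446 and 3812 in ISP8 cells, against 650.0, 4812, 684 and 603 in DN3 cells, so that the DN3 array of pair 2 stood inside the ISP8 range. For Hnrnpf, 2 other probe sets passed in PKBα-/- mice (0.39 and 0.45) and 3 in wild-type mice (0.32 to 0.47), while 1456664_x_at, the brightest, gave 0.00 and 0.02. For Hnrnpab, 4 others were called higher in each genotype and 1426114_at was called lower in PKBα-/- mice.

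Others went the opposite way. The Nudt21 probe sets 1428339_at, 1455966_s_at and 1437213_at gave -0.30, -0.20 and -0.16 in PKBα-/- mice and -0.18, -0.71 and -0.85 in wild-type mice, where 1455966_s_at passed (adjusted p = 0.048). In wild-type mice 1455966_s_at read 764, 673, 469 and 806 in ISP8 cells, against 526, 1304, 1383 and 1450 in DN3 cells, so that pair 1 went up and the 3 other pairs down. The transcripts these probe sets distinguish were not resolved here. Hnrnpr and Prpf39 also had 1 other probe set each that was called lower in wild-type mice. When all probe sets of a gene were averaged, 25 of 39 calls were kept in PKBα-/- and 28 of 37 in wild-type mice, and those lost in both were Hnrnpd, Hnrnpl, Nudt21, Prpf38a, Sf3b6 and Snrpd3. Lost in PKBα-/- mice only were Hnrnpa1, Hnrnpc, Prpf4b, Sf3a1, Sf3a2, Snrpb2, Snrpg and Srsf5, and in wild-type mice only Sf3b2, Snrpc and Srsf1.

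Other genes of the pathway, from lists of the same machinery, were called in both directions. Of 141 tested, 51 were higher (36.2%) and 17 lower (12.1%) in PKBα-/- mice and 45 higher (31.9%) and 15 lower (10.6%) in wild-type mice, with medians of 0.08 and 0.13. The bright genes gave 28.9% higher and 22.7% lower in PKBα-/- mice and 30.3% and 22.2% in wild-type mice. All probe sets gave 11.9% and 16.2% in PKBα-/- mice and 11.6% and 17.3% in wild-type mice. These lists were not limited to bright genes. Their share higher in wild-type mice was near that of the bright genes, while their share lower was below it in both genotypes. The counts of the short lists that follow are descriptions only. Partners of the catalytic core gave 21 higher and 1 lower of 40 in PKBα-/- and 17 higher and 1 lower in wild-type mice, among them Ppil1 (wild-type change 1.28), a peptidyl-prolyl isomerase of the spliceosome, and Phf5a (0.73), an SF3B subunit. For snRNP assembly and LSm proteins, 7 of 22 were higher and 1 lower in PKBα-/- and 7 higher in wild-type mice, including Lsm3 (0.92) and Lsm4 (0.73) of the LSm rings, and Prmt5 (0.77), which methylates Sm proteins. Of 9 SR protein kinases and carriers, 2 were higher and 3 lower in PKBα-/- mice and 1 was higher and 3 lower in wild-type mice. Those lower in wild-type mice were Clk2 (-0.88 ± 0.11), Srpk2 (-0.64 ± 0.10) and Clk1 (-0.53 ± 0.11), all of which phosphorylate SR proteins.

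Further regulators of alternative splicing were split, with 17 higher and 8 lower of 42 in PKBα-/- mice and 16 higher and 5 lower in wild-type mice. Mbnl3 was higher in wild-type ISP8 cells (0.83) and its paralog Mbnl2 lower (-0.79), and Rbm5 was lower (-0.82). Of 19 cleavage and polyadenylation genes, 3 were higher and 2 lower in PKBα-/- and 3 higher and 3 lower in wild-type mice. Of 9 genes of the exon junction complex and nonsense-mediated decay, 1 was higher and 2 lower, and 1 higher and 3 lower, with Rbm8a (0.62) higher and Upf2 (-0.49) lower in wild-type mice.

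Within each stage the differences of the members between genotypes were small. These values are a description with no test, because the genes were chosen with results of this comparison known. In ISP8 cells the median difference of PKBα-/- over wild-type was -0.05 and the largest was -0.42, and in DN3 cells the median was 0.01 and the largest 0.25. In ISP8 cells 13 members were lower in PKBα-/- mice in 4 of 4 pairs and 1 was higher, against 6.71% and 7.96% of all probe sets. In DN3 cells 2 were lower and 5 higher in 4 of 4 pairs, against 6.98% and 5.51%, and nothing is read from these counts.

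The largest ISP8 difference was that of Srsf2 (SC35), an SR protein of nuclear speckles. It read 3743, 5312, 6244 and 4830 in PKBα-/- ISP8 cells, against 5644, 6370, 7460 and 7120 in wild-type ISP8 cells, a difference of -0.42 ± 0.08 (SE). Each PKBα-/- array was below its littermate, while the ranges of the groups overlapped. Its other probe sets differed by -0.15, 0.11 and -0.66 in ISP8 cells. In DN3 cells Srsf2 read 5465, 3263, 3782 and 7548 in PKBα-/- mice, against 4568, 5235, 6232 and 6249 in wild-type mice, with pairs on either side. Sf3b6 (-0.28 ± 0.06), Snrpd3 (-0.28 ± 0.09), U2af1l4 (-0.24 ± 0.12), Srsf6 (-0.13 ± 0.06) and Hnrnpc (-0.12 ± 0.06) were also lower in 4 of 4 ISP8 pairs, and Prpf6 was higher (0.14 ± 0.09). The actin 3′ to 5′ difference was higher in PKBα-/- than in wild-type ISP8 cells in 4 of 4 pairs (mean 0.24). That of Gapdh was higher in 2 of 4 pairs (mean 0.10), and the part of either was not tested. In DN3 cells Snrpd3 (0.16), Hnrnpu (0.12), Hnrnpd (0.11), Ptbp1 (0.10) and Sf3a2 (0.06) were higher in 4 of 4 pairs, and Prpf19 (-0.05) and Snrpe (-0.03) lower.

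Differences between genotypes were larger at some other probe sets of Ptbp1, Nudt21, Sf3b2 and Hnrnpk, which were chosen after their values were seen. Ptbp1 1458284_at read 382, 3085, 1378 and 391 in PKBα-/- DN3 cells, against 288, 487, 416 and 269 in wild-type DN3 cells, and 2349, 14887, 2580 and 1721 in PKBα-/- ISP8 cells, against 1680, 1800.1, 990.2 and 1847 in wild-type ISP8 cells. The PKBα-/- mouse of pair 2 was far above the other mice in both stages, while the brightest Ptbp1 probe set differed by at most 0.17 in any pair of either stage. Nudt21 1455966_s_at read 1186, 900.4, 798 and 1276 in PKBα-/- ISP8 cells, against 764, 673, 469 and 806 in wild-type ISP8 cells, higher in 4 of 4 pairs (0.62), and it differed by 0.12 in DN3 cells with 1 of 4 pairs higher.

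Sf3b2 1429362_a_at read 2502, 3148, 2423 and 3449 in PKBα-/- ISP8 cells, against 2013, 2101, 1537 and 2086 in wild-type ISP8 cells, without overlap (0.57), while the brightest Sf3b2 probe set gave -0.02. For Hnrnpk 1454692_x_at the ISP8 values were 3023, 6510.2, 7593 and 5715 in PKBα-/- mice, against 2236, 5425, 5446 and 3812 in wild-type mice (0.44), with -0.02 at the brightest. In DN3 cells these probe sets of Sf3b2 and Hnrnpk differed by 0.07 and 0.22, with pairs on either side of 0.

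**Figure D5:**
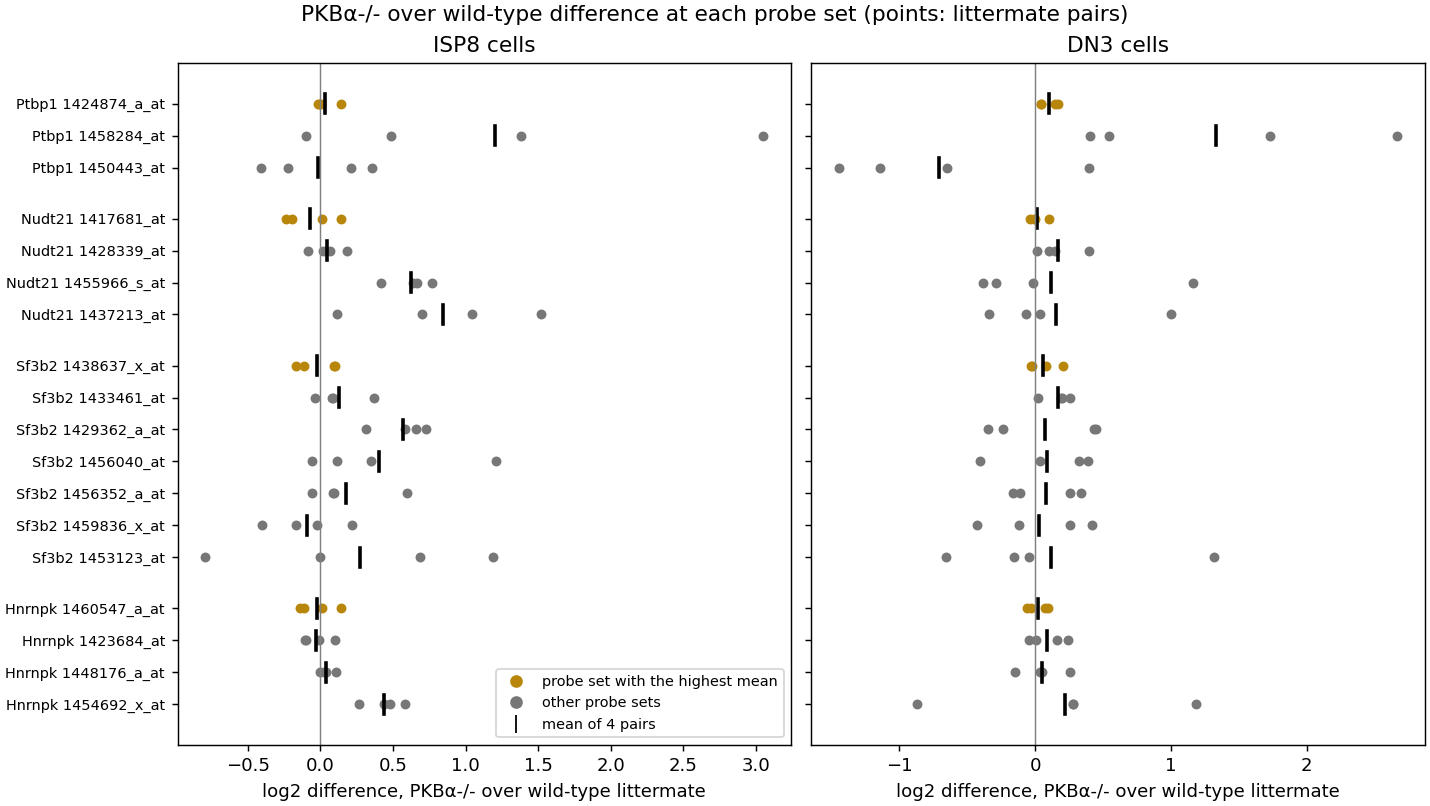
Log2 difference of PKBα-/- over wild-type littermate (horizontal axes) at every probe set of Ptbp1, Nudt21, Sf3b2 and Hnrnpk (rows, brightest first within a gene) in ISP8 (left) and DN3 cells (right), with a point for each of 4 littermate pairs and a bar for their mean. The brightest probe sets (gold) lie near 0 in both stages, while Ptbp1 1458284_at spreads up to 3.05 in ISP8 cells.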

How the data were processed

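Thymocyte RNA from 8 mice was hybridized to 16 Affymetrix 430 2.0 arrays. The deposited values are linear intensities that the authors condensed from probe level with GCRMA. They were taken to log2 without a constant. Probe sets were kept where a value exceeded 20 in at least 1 array of a pair in at least 3 of 4 pairs. Comparisons were made with limma (3.58.1, R 4.3.3; lmFit and eBayes with trend) with the mouse (stage) or littermate pair (genotype) as a block, both given by the study, and Benjamini-Hochberg adjustment covered all probe sets tested, with a threshold of 0.05. Deviations from group means correlated at 0.117 to 0.296 between arrays of 1 mouse and at 0.0807 to 0.400 between littermates. The number of arrays limits the precision. The p-values rest on the spread of within-mouse or within-pair differences, with an error that eBayes draws toward that of other probe sets. Promoter sequences were read from a RefSeq table. The code was tested on simulated data. Members, gene lists and tests were chosen with earlier results of these data known. Most genes were named by a rule: within each role those with the smallest adjusted p in wild-type mice, those with the largest genotype difference in 4 of 4 pairs, the highest and lowest in mean level, and Ptbp1, Nudt21, Sf3b2 and Hnrnpk. Others, among them Sf3b1, Prpf8, U2af1, Srsf3, Hnrnpl and Hnrnpa2b1, were named outside this rule. Alternatives covered the filter, an added constant, quantile normalization, the block, robust moderation, averaging of probe sets, leaving out each pair, 1 fit of all arrays and the methods' t-test.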

Additional observations from a re-analysis of the deposited data

Results flagged for a closer look

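In 7 of 136 groups of 4 arrays tested, 1 array lay so far from the other 3 that its gap to the nearest of them, as a share of the group's range, exceeded Dixon's critical value. Chance gives this in about 1 of 20 groups. In PKBα-/- ISP8 cells these were Hnrnpc (share 0.928, pair 4 at 16056 and the others at 19258 to 19534) and Sf3b4 (0.832, pair 1 at 4603 and the others at 6087 to 6440.5). In PKBα-/- DN3 cells they were Prpf40b (0.942, pair 3 at 67.0 and the others at 98.0 to 100.4), Snrpc (0.875, pair 1 at 3242 and the others at 3732 to 3808) and Snrpd3 (0.856, pair 3 at 6511 and the others at 4869 to 5077). In wild-type DN3 cells they were Hnrnpk (0.959, pair 3 at 16002 and the others at 17535 to 17603) and Sf3b4 (0.85, pair 2 at 4277 and the others at 1725 to 1977).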

How the results depend on the processing

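Members called between ISP8 and DN3 numbered 39 in PKBα-/- and 37 in wild-type mice. With 1 pair left out they numbered 31 to 36 in PKBα-/- and 34 to 38 in wild-type mice. Without the replicate block they numbered 32 and 35, and no member was called for the difference of the change between genotypes. The methods' t-test with at least 1.5-fold in 3 of 4 pairs gave 12 of 62 in PKBα-/- and 15 of 62 in wild-type mice, all higher in ISP8 cells. By this rule 5910 of 34038 probe sets were called in PKBα-/- mice (2137 higher and 3773 lower). In wild-type mice 6626 of 34506 were called (2246 higher and 4380 lower). The members' share called in either direction was thus not far above that of all probe sets. The methods' t-test after Benjamini-Hochberg gave 12 and 16 members, against 3036 and 3103 of all probe sets. Values of single genes that changed sign in PKBα-/- mice were Hnrnpk (-0.0939) and Srsf2 (-0.0448) after quantile normalization, and Nudt21 (-0.0988), Prpf38a (-0.233) and Hnrnpc (-0.407) with all probe sets averaged. With a pair left out, PKBα-/- values ranged from -0.162 to 0.293 for Srsf2, from -0.118 to 0.0345 for Prpf6 and from -0.0289 to 0.0835 for Hnrnpk. In wild-type mice the sign changed for Hnrnpk (-0.0863) after quantile normalization and Nudt21 (-0.346) with all probe sets averaged. The cause was not tested. A fit of all 16 arrays was not run for the difference of the change between genotypes, since that test already uses all of them.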
